A study of Mus musculus with 3 samples.

Results

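The genes described here are 47 genes that repair breaks in DNA, chosen by name from textbook repair pathways and read on arrays of LT-HSCs (long-term hematopoietic stem cells), the cells at the root of blood formation that self-renew for life. They were sorted into 4 groups by role, with 12 end joining genes, 19 homologous recombination genes, 12 genes of the Fanconi anemia pathway and 4 single-strand break repair genes. All 47 had at least 1 probe among the 37072 gene names on the array, and each gene was represented by its probe with the highest mean signal.

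LT-HSCs of C57BL/6J mice were compared between 3 genotypes, each hybridized to 1 Agilent array with Cy3-labelled RNA. WT mice were the controls, AtmsKO mice were made to lose Atm, and Atmp38dKO mice were made to lose both Atm and Mapk14, the gene of p38α. The floxed alleles were deleted with tamoxifen by CreERT2 under the CAG promoter, which is active in most tissues and not in blood cells alone. Per the methods, controls of the study also received tamoxifen and carried floxed alleles without the Cre transgene, and animals of both sexes were used. The labels give an age of 11 weeks, whereas the series text puts tamoxifen at about 5 weeks and the analysis 4 weeks later. The labelled cells are CD150+, CD48-, Flt3- and CD34- within the LSK fraction, which lacks lineage markers and carries Sca-1 and c-Kit. The methods add CD41-, and how many mice went into an array is not stated. Since each group holds 1 array, the spread among animals is unknown, no test was run, and a comparison is between arrays rather than genotypes. In such bulk samples, fewer cells that express a gene and less of its RNA per cell cannot be told apart.

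The double-strand break is the lesion that Atm answers. Atm is a kinase that is activated at broken ends and phosphorylates histones and repair proteins around them, including the products of several genes described here. End joining seals the ends directly and works throughout the cell cycle, whereas homologous recombination copies the lost sequence from the sister chromatid and is largely limited to cells that have replicated their DNA. The Fanconi anemia pathway unhooks crosslinks between both strands and is required for blood stem cells to persist, and single-strand break repair closes nicks before replication turns them into double-strand breaks.

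The arrays lay on the same slide in the same scan. Between 68.9% and 77.7% of probes were well above background, a flag of the scanner software. All 12 LT-HSC marker genes, Kit and Procr among them, were well above background on every array, but Cd34 was too, with signals of 1694 units on WT, 1666 on AtmsKO and 2186 on Atmp38dKO, although the sort was for cells without CD34 on the surface. Of the 5 T cell markers, 3 were well above background on every array. Atm read 87.0, 23.9 and 86.5 at its brighter probe and 88.8, 16.3 and 49.0 at the other, in the same order of arrays. Mapk14 read 469, 558 and 616 at its brighter probe and 295, 260.1 and 345 at the other. Atm was thus low at both probes on the AtmsKO array, whereas Mapk14 was not low on the third array at either probe and Atm only at one of them. Whether these probes lie in the deleted part of each gene is not known from the files. The third array is therefore called the array labelled Atmp38dKO, and the direction of every comparison with it rests on that label.

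Signals are processed intensities in scanner units, before scaling. Differences are log2 differences after each array was divided by its 75th percentile, which was 102 units for WT, 96.2 for AtmsKO and 118 for Atmp38dKO. A difference was counted if it was at least 2-fold and the brighter array was well above background. The members were measured with 106 probes, from 1 to 6 a gene, and each was printed as 1 spot. Of the 47 chosen probes, 45 were well above background on all 3 arrays, and 14 had a mean signal under 50 units. Probes printed as several spots show what that means for precision. On the WT array the median SD between spots of a probe was 0.0501 on the log2 scale above 1000 units, 0.0614 from 200 to 1000 units, 0.101 from 50 to 200 units, 0.216 from 20 to 50 units and 0.261 below 20 units. These medians rest on 244, 22, 9, 4 and 12 probes, and the largest SDs in the 3 dimmest ranges were 0.198, 0.381 and 0.623. The SD between spots is the spread within an array alone, and it does not include the sort, the labelling or the animals.

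**Figure D1:**
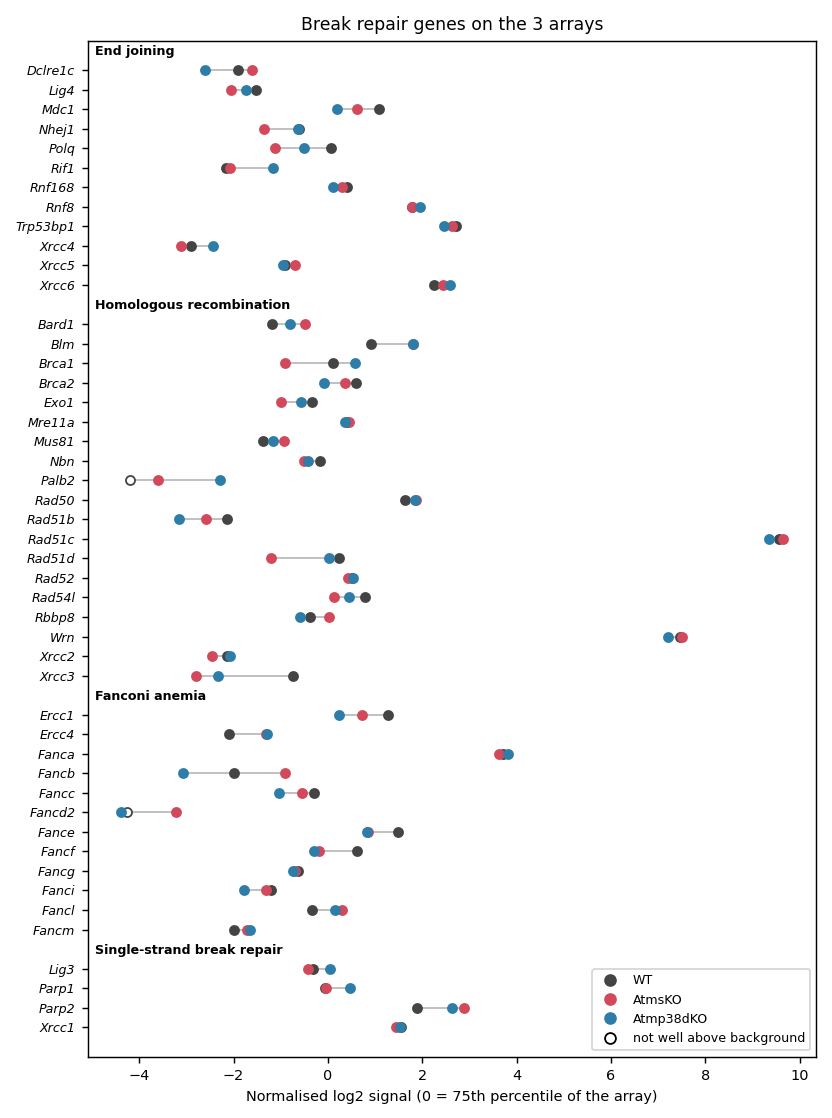
Normalised log2 signal (x axis, 0 is the array's 75th percentile) of the chosen probe of each of the 47 break repair genes (rows) on the 3 arrays (colours), grouped by role. Grey bars span the 3 arrays and open circles are values not well above background (Fancd2 raised to the detection floor); probe levels can be compared within a row and not between rows, and the longest bars are those of Fancb and Xrcc3.

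The range over the 3 arrays was under 0.5 on the log2 scale for 18 of the 47 members and reached 1 for 10. No share of all genes is given for this range, which reaches 1 more readily than the difference of a single comparison. The shares that follow are for single comparisons. In AtmsKO against WT 59.6% of the members lay within 0.5 on the log2 scale, against 75.2% of all genes, and in the array labelled Atmp38dKO against WT 61.7% did, against 73.2%. In the array labelled Atmp38dKO against AtmsKO the shares lay closer, at 72.3% and 76.4%. The smallest ranges were those of Mre11a, the nuclease of the complex that first binds and trims broken ends (0.08), Rad52, which anneals single strands (0.10), and Fancg, a subunit of the Fanconi core complex (0.11).

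To ask what loss of Atm was accompanied by, the AtmsKO array was compared with WT. Of the 4 members that read at least 2-fold lower, 3 were homologous recombination genes. Xrcc3 and Rad51d, which both act in the early steps of strand exchange, were 4.14-fold and 2.72-fold lower, and Brca1, which promotes the trimming of ends for recombination, was 2.02-fold lower. The other was Polq, the polymerase of alternative end joining, which was 2.31-fold lower. The 2 members that read at least 2-fold higher belong to the Fanconi pathway, where Fancb, a core complex subunit, was 2.09-fold higher and Fancd2, which the core complex ubiquitinates, at least 2.05-fold higher.

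In all, 2 of the 47 members were at least 2-fold higher, against 3.94% of the 28866 genes considered. A further 4 members, or 8.51%, were at least 2-fold lower, against 4.09% of the genes considered. If genes had to be detected on each of the 3 arrays, these shares were 2.85% and 2.76%. The median log2 difference of the members was -0.09, against 0.01 for all genes, and 27 of the 47 were below 0. Of the 11 members with a mean signal of 50 to 100 units and the 11 of 100 to 200 units, 2 and 1 differed at least 2-fold, where 8.1% and 3.65% of all genes of that signal did so. Of the 3 members of 10 to 20 units 0 did, against 16.1%, and of the 10 of 20 to 50 units 2 did, against 13.0%. The 1 member of 5 to 10 units did, against 11.1%, and no member above 200 units did.

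To ask what differed where both genes were to be deleted, WT was set against the array labelled Atmp38dKO. Palb2, which links Brca1 to Brca2, was at least 3.79-fold higher, and Rif1, which keeps ends from being trimmed and so favours end joining, was 2.00-fold higher. Xrcc3 was 3.02-fold lower, Fancb 2.12-fold lower, Ercc1, a subunit of the nuclease that cuts beside crosslinks, 2.06-fold lower, and Rad51b, which acts in the early steps of strand exchange, 2.02-fold lower. Those are 2 members at least 2-fold higher, against 4.02% of the 30456 genes considered, and 4 at least 2-fold lower, or 8.51%, against 4.49% of the genes considered. With detection on each of the 3 arrays the shares were 2.89% and 2.99%. The median of the members was -0.11, against 0.02 for all genes. This comparison and the preceding one share the WT array, so that an unusual value there enters both.

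The array labelled Atmp38dKO was then compared with the AtmsKO array, from which it differs by label in the deletion of Mapk14. Mapk14 itself differed by only -0.15 and 0.115 on the log2 scale at its probes. Atm was higher on the array labelled Atmp38dKO at both of its probes, by 1.57 and 1.30. The comparison therefore cannot be read as what a second deletion adds. Brca1 was 2.81-fold higher, Palb2 2.49-fold higher and Rad51d 2.35-fold higher, all of them recombination genes. Fancb was 4.44-fold lower and Fancd2 2.25-fold lower. Of the 47 members, 3 were thus at least 2-fold higher, against 3.75% of the 30017 genes considered, and 2 at least 2-fold lower, against 3.72%. With detection on each of the 3 arrays 2.72% were higher and 2.69% lower. The median of the members was -0.01, against 0.00 for all genes.

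**Figure D2:**
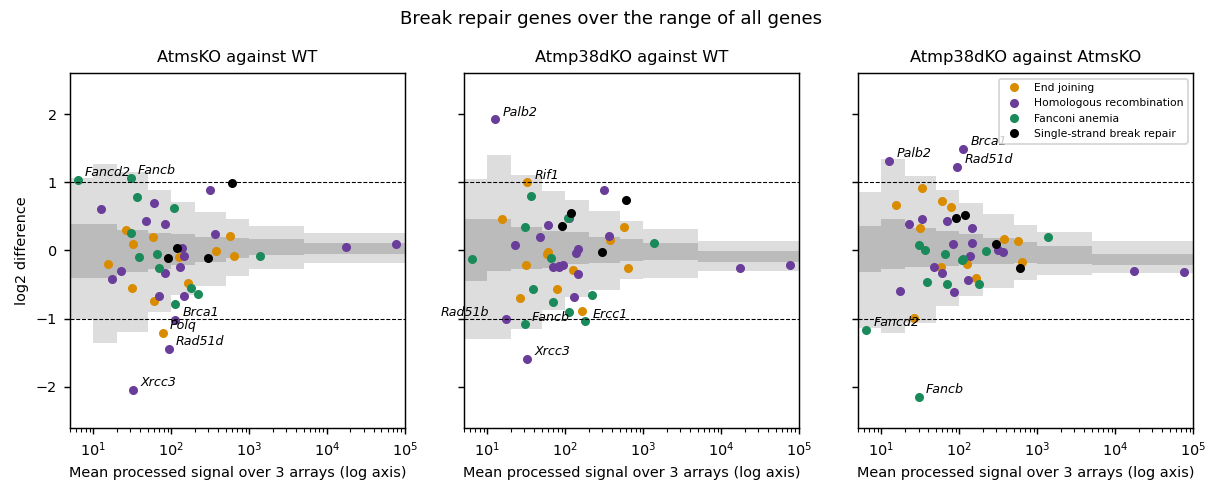
Log2 difference (y axis) against mean processed signal over the 3 arrays (x axis, log scale) for the 47 break repair genes, coloured by role, in the 3 comparisons. Dark and light grey bands hold the middle 50% and 90% of all genes in each range of signal and dashed lines mark 2-fold; the bands widen as the signal falls, and Xrcc3 in both comparisons with WT and Fancb between both knockout arrays are among the points outside the light band.

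Of the 12 end joining genes, Polq alone passed 2-fold in AtmsKO against WT and Rif1 alone in the array labelled Atmp38dKO against WT, and none passed it between both knockout arrays. These 2 calls are 5.56% of the group's values over the 3 comparisons, against 8.01% over all genes, with each array entering 2 of the comparisons. The group medians were -0.09, -0.13 and 0.15 in AtmsKO against WT, Atmp38dKO against WT and Atmp38dKO against AtmsKO.

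Polq read 107 units on the WT array, 43.9 on AtmsKO and 83.5 on the array labelled Atmp38dKO, with log2 differences of -1.21 and -0.57 from WT. Its lowest value was thus on the AtmsKO array, but a further probe on an Ensembl transcript of the gene read 82.8, 64.0 and 66.0, or -0.29 for AtmsKO on the log2 scale, and the third, a dim probe, read 8.57, 10.3 and 13.2. Rif1 read 22.7, 22.9 and 52.8 units, so WT and AtmsKO were alike and the third array was higher, with a log2 difference from WT of 1.00 that lay just past the threshold. The other Rif1 probe read 17.3, 11.9 and 24.0, a log2 difference of 0.26. Neither gene had a further probe that reached 2-fold in the same comparison.

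The brightest chosen probes of the group were those of Trp53bp1, Xrcc6 and Rnf8. Trp53bp1 encodes 53BP1, a protein that gathers at breaks and shields the ends, and its chosen probe read 668, 598 and 648 units. Xrcc6, the Ku70 subunit of the ring that threads onto broken ends, read 479, 525 and 704, and Rnf8, a ubiquitin ligase that marks chromatin around breaks, read 350.4, 331 and 453. After scaling the largest difference among the chosen probes of these 3 genes was 0.34 on the log2 scale, for Xrcc6 on the third array against WT. The RefSeq probes of Rnf8 were dimmer, at 40.3, 35.0 and 35.0 units and at 66.2, 67.1 and 67.6. For the third array against WT they gave -0.42 and -0.19, where the chosen probe gave 0.16. Some other Trp53bp1 probes differed more than its chosen one. The next by signal read 429, 286 and 427 units, or -0.51 on the log2 scale for AtmsKO against WT, another read 40.7, 20.4 and 64.3, or -0.92 there and 1.37 between both knockout arrays, and a further one gave -0.90 for the third array against WT. Dclre1c, or Artemis, the nuclease that opens hairpin ends, was an example of probes in conflict. Its chosen probe read 27.0, 31.6 and 19.4 units, with a log2 difference of -0.9971 between both knockout arrays that fell just short of the threshold. Another probe on the same RefSeq mRNA read 6.29 units on WT and 25.2 on the third array, and its difference between both knockout arrays was 0.84.

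Of the 19 homologous recombination genes, 3 were at least 2-fold lower and 0 higher in AtmsKO against WT, 2 lower and 1 higher in the array labelled Atmp38dKO against WT, and 0 lower and 3 higher between both knockout arrays. These 9 calls are 15.8% of the group's values over the 3 comparisons, against 16.7% for the Fanconi genes and 8.01% over all genes. Each array enters 2 of the comparisons, so a gene can be counted more than once. The recombination calls come from Brca1, Rad51d, Xrcc3 and Palb2, each in more than 1 comparison, and Rad51b. The Fanconi calls come from Fancb, Fancd2 and Ercc1 alone. The group medians stayed at -0.09, -0.21 and 0.00.

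Xrcc3 had the largest difference from WT among members detected on all 3 arrays. Its only probe, at chr12:113041404-113041463 of mm9, read 60.9 units on WT, 14.0 on AtmsKO and 23.4 on the array labelled Atmp38dKO. The log2 differences from WT were -2.05 and -1.59, and WT stood above both knockout arrays. No other Xrcc3 probe was on the array to set beside it. At its chosen probe Rad51b read 22.9, 16.1 and 13.2 units and was also highest on WT, with differences of -0.43 and -1.01. Its other probe read 1.31, 1.48 and 7.15 units and was well above background on the third array alone. There it went the other way, with a bound of 0.21 against WT.

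Rad51d read 119 units on WT, 41.6 on AtmsKO and 119 on the third array, with log2 differences from WT of -1.44 and -0.21. The AtmsKO array alone was low at that probe. At the next probe the values were 45.8, 31.1 and 57.3, a difference of -0.48 for AtmsKO, and at the third they were 38.7, 58.0 and 86.5, a difference of 0.66, so the probes of Rad51d did not share a direction.

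Brca1 behaved likewise. The chosen probe read 109 units on WT, 51.1 on AtmsKO and 176 on the array labelled Atmp38dKO, which gave -1.01 on the log2 scale in AtmsKO against WT and 1.49 between both knockout arrays. A probe on the same RefSeq mRNA read 69.3, 84.0 and 82.4, or 0.35 and -0.32 in the same comparisons. The 2-fold differences of Brca1 were thus seen at the chosen probe alone. In both stretches below, the first 30 bases of each 60-base probe are given 5′ to 3′ in lower case, as deposited, to show which parts of the message were read. They lie at chr11:101350409-101350468 and chr11:101386419-101386478 of mm9.
Brca1 chosen probe: gccttctaattccccatagcttatgagcag
Brca1 other probe: aatcccagccctcagagaacaggaacagag

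Palb2 was near the detection limit. Its chosen probe read 5.52 units on WT, where it was not well above background, 7.97 on AtmsKO and 24.3 on the third array. A second RefSeq probe read 6.61, 6.19 and 19.5 units, so that both were highest on the array labelled Atmp38dKO, by at least 3.79-fold over WT at the first and by 1.34 on the log2 scale at the second. A further Palb2 probe, undetected on AtmsKO, read 5.86, 1.22 and 7.03 units. It gave 0.05 for the third array against WT. For a value not well above background, the fold is a bound set by the higher of the probe's own value and the lowest signal of a detected probe on that array, as it is for Fancd2.

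Blm, the helicase that dissolves crossed-over DNA, was picked for a closer look after its values were seen. It read 192, 334 and 409 units at the chosen probe, with log2 differences from WT of 0.88 and 0.88, under 2-fold. At a further probe of similar brightness it read 242, 228 and 273, with differences of -0.01 and -0.05. Both probes were well above background on all 3 arrays, and they gave unequal differences. Their first 30 bases, at chr7:87600243-87600302 and chr7:87603775-87603834 of mm9, are as follows.
Blm chosen probe: aaacgacttctaaaagtaaattctatggtg
Blm other probe: aggaggaggaggaagcgcctgtatcttctc

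The brightest members of the group need the probe sequence to be read. The chosen probe of Rad51c, which also acts in strand exchange, read 76707, 77370 and 76426 units, and that of Wrn, a helicase and exonuclease, 17936, 17572 and 17455. Other probes of the same genes were far dimmer. The next Rad51c probe read 71.3, 47.7 and 78.6 units, with -0.50 on the log2 scale in AtmsKO against WT where the chosen probe gave 0.09. The next Wrn probe read 309, 345 and 521, a difference of 0.54 for the array labelled Atmp38dKO where the chosen probe gave -0.25.

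Both chosen probes carry a run of a repeated pair of bases, shown in capitals in 30 bases of each probe beside the first 30 bases of the next probe. They lie at chr11:87190997-87191056 and chr11:87191873-87191932 for Rad51c and at chr8:34345071-34345130 and chr8:34344950-34345009 for Wrn, on mm9.
Rad51c chosen probe: TGTGTGTGTGTGTGTGgtggtggtggtgtt
Rad51c next probe: taatttctgagtcatgtctctgtccctcca
Wrn chosen probe: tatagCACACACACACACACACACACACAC
Wrn next probe: aactcatccacacaacgagaacatttacag
Over the whole array 113 probes held a TG or CA run of at least 16 bases, and 92.9% of them read at least 5000 units, against 1.45% of the other 56487 probes. How much of the signal of Rad51c and Wrn came from these genes was not tested. Both stand in the counts, medians and figures at these chosen probes. With the next probes in their place the counts of members past 2-fold stayed as they were, and the member medians became -0.09, -0.05 and 0.01 in AtmsKO against WT, Atmp38dKO against WT and Atmp38dKO against AtmsKO.

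Rad50, which holds the Mre11a complex together, was the remaining bright member and read 316, 353 and 423 units, with log2 differences from WT of 0.24 and 0.21. Mre11a itself read 135, 131 and 152, and Rad52 144, 129 and 170, or log2 differences from WT of at most 0.09 in size for both genes. Another Rad52 probe, which read 41.7, 59.1 and 84.8 units, gave 0.58 and 0.81.

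Among the Fanconi genes the group median was -0.07 in AtmsKO against WT, -0.35 in the array labelled Atmp38dKO against WT and -0.13 between both knockout arrays. In the second of these comparisons 8 of the 12 genes were below 0, and this was the lowest median of the 4 groups in any of the 3 comparisons. Fancb read 25.6 units on WT, 50.9 on AtmsKO and 14.0 on the third array. It was the member with the widest range, 2.15 on the log2 scale, and the knockout arrays stood on either side of WT. It has a single probe, at chrX:161434946-161435005 of mm9, and its log2 differences from WT were 1.07 and -1.09. The median SD between spots at such signals was 0.216 on WT for 20 to 50 units. On AtmsKO, where Fancb lay just past 50 units, it was 0.233 for 20 to 50 units and 0.107 for 50 to 200 units. On the third array it was 0.278 below 20 units, and there is no value for the spread between animals. Those medians rest on 4, 6, 10 and 10 probes.

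Fancd2 read 3.01 units on WT, where it was not well above background, 10.4 on AtmsKO and 5.65 on the third array, all close to the floor. The highest value was on the AtmsKO array, and no fold is given for the third array against WT. Its other probe was not well above background on any array.

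Ercc1 read 246, 160 and 139 units, and WT was the highest, with log2 differences of -0.55 and -1.04. A further probe read 99.9, 73.5 and 111, with -0.37 and -0.07. The chosen probe is one of 7 chosen probes whose ends lie further apart on the genome than their own length, so that it spans a splice junction and reads the spliced message. It is shown whole, at chr7:19939753-19940487 of mm9, together with that of Rif1 at chr2:51962471-51963167.
Ercc1 chosen probe: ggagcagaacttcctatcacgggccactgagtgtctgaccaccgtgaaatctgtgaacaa
Rif1 chosen probe: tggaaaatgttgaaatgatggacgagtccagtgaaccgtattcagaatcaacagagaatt

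Ercc4, whose product XPF forms the nuclease with Ercc1, read 23.7, 38.7 and 47.9 units, with log2 differences of 0.79 and 0.80 from WT. A further probe read 40.9, 24.8 and 36.1, with differences of -0.64 and -0.40, the opposite direction on both knockout arrays. The probes of Ercc4 thus gave no common direction.

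At their chosen probes the core complex subunits Fanca and Fance were bright members of the pathway. Fanca read 1333, 1188 and 1663 units, with log2 differences of -0.09 and 0.10. Fance read 285, 173 and 210.1, with -0.64 and -0.65, so that both knockout arrays were below WT for Fance alone. Other Fanca probes on the same RefSeq mRNA were far dimmer, at 17.1, 23.2 and 30.8 units and at 13.5, 15.4 and 8.51. They gave 0.52 and 0.64, and 0.28 and -0.88, so the steadiness of Fanca was seen at the chosen probe alone. The other Fance probe read 20.3, 15.5 and 21.6 units, with -0.31 and -0.13, the same direction and smaller. Fancg, among the steadiest genes at its chosen probe with 65.4, 59.6 and 70.5 units, was not steady at the others. A junction-spanning probe read 23.4, 17.9 and 72.2, a difference of 1.41 for the third array against WT, and another read 37.9, 17.5 and 59.0, a difference of -1.04 for AtmsKO.

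Of the 4 single-strand break repair genes none passed 2-fold in any comparison, and the group medians were -0.04, 0.45 and 0.28. Parp2, which adds ADP-ribose chains at breaks as Parp1 does, came closest. It read 376 units on WT, 711 on AtmsKO and 730 on the third array, with log2 differences of 0.9962 and 0.74, and both knockout arrays stood above WT. At the other probe the values were 80.1, 106 and 102, in the same direction with differences of 0.49 and 0.14. Both probes span a splice junction, at chr14:51435922-51436654 and chr14:51439134-51439365 of mm9. They are shown whole as a pair of probes of a bright member that gave the same direction and unequal sizes.
Parp2 chosen probe: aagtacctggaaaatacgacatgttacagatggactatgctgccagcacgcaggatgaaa
Parp2 other probe: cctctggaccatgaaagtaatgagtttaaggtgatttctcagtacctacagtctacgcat

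Parp1, the main sensor of single-strand breaks, read 96.7, 93.5 and 164 units, so that the third array was highest, with a log2 difference of 0.54 from WT and 0.03 for AtmsKO. Xrcc1, the scaffold that brings ligase 3 to the nick, read 298, 260.1 and 339 and hardly differed after scaling, by -0.12 and -0.03.

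**Figure D3:**
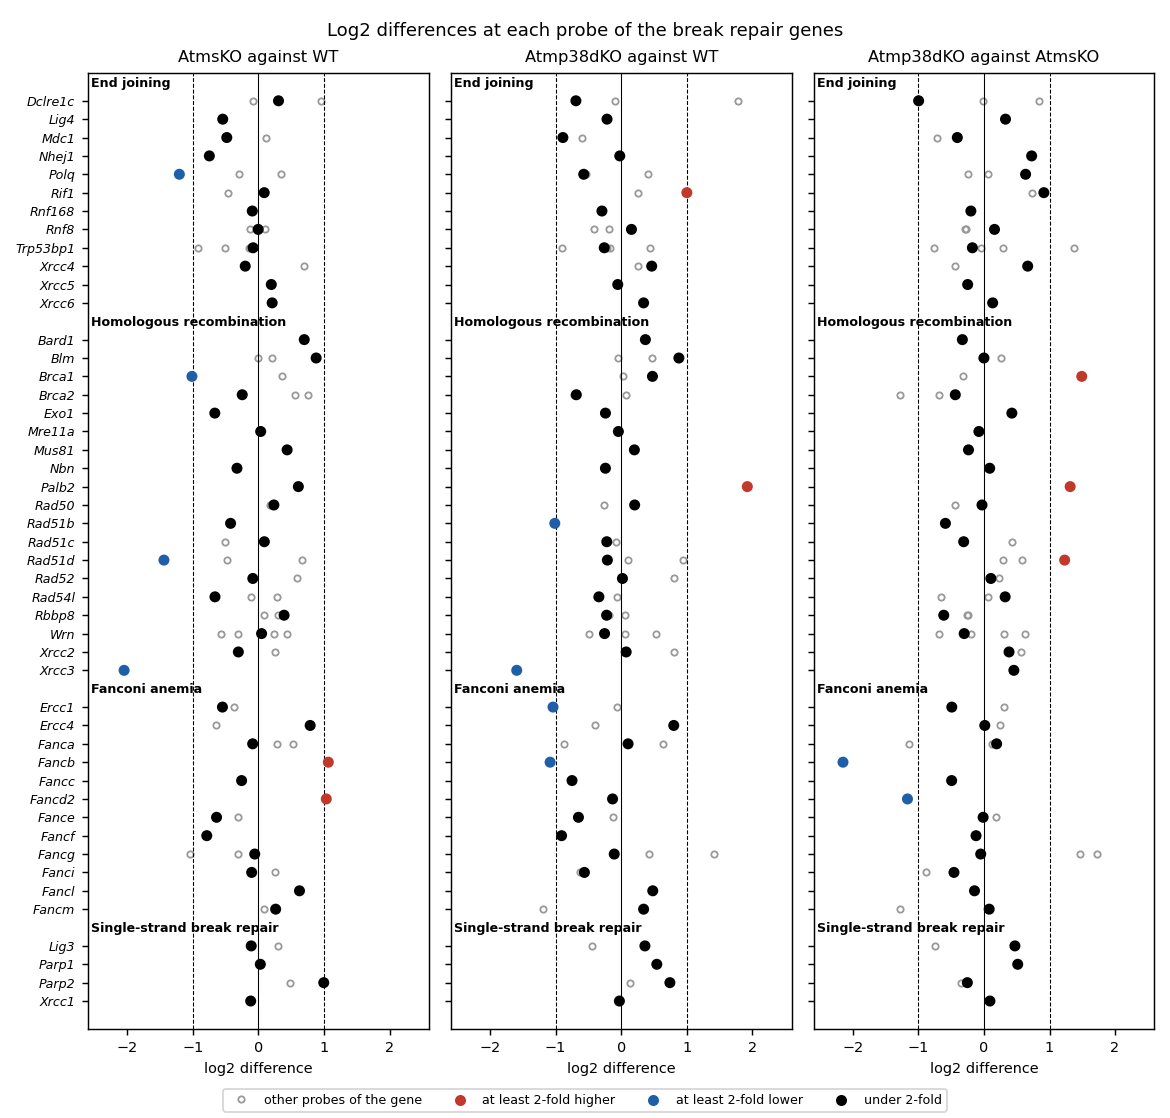
Log2 differences of the 47 break repair genes (rows, grouped by role) in the 3 comparisons (panels), with filled circles for the chosen probe, red or blue from 2-fold, and open grey circles for other probes of the gene well above background on all 3 arrays. Dashed lines mark 2-fold; Xrcc3 and Fancb have no open circle, and the open circles of Brca1, Rad51d, Polq, Ercc1 and Rif1 lie inside the dashed lines.

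The remaining 21 members stayed under 2-fold in every comparison. Their log2 differences lay between -0.79 (Fancf) and 0.88 (Blm) in AtmsKO against WT, between -0.91 (Fancf) and 0.88 (Blm) in the array labelled Atmp38dKO against WT, and between -0.61 (Rbbp8) and 0.73 (Nhej1) between both knockout arrays. They include Brca2 and Bard1, the partners of Palb2 and Brca1, Nbn, Exo1 and Rbbp8 of end trimming, Xrcc2, Rad54l and Mus81 of recombination, the ligation factors Lig4, Xrcc4, Nhej1 and Lig3, the Ku80 gene Xrcc5, Mdc1 and Rnf168 of break signalling, and Fancc, Fancf, Fanci, Fancl and Fancm of the Fanconi pathway.

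How far a value of 1 probe stands for its gene was examined over all members. In AtmsKO against WT, 27 members had a further probe well above background on both arrays, 43 such probes in all. Of these, 21 or 48.8% differed in the same direction as the chosen probe, against 6314 of 11920 further probes over all genes. In the array labelled Atmp38dKO against WT the share was 54.5%, against 53.5%, and between both knockout arrays it was 54.5%, against 54.4%. The median gap between the log2 differences of both probes was 0.56, 0.53 and 0.46 for members and 0.37, 0.39 and 0.37 for all genes. For members with a 2-fold difference at the chosen probe, none of 5, 2 and 3 further probes in the 3 comparisons reached 2-fold in the same direction, as 8.75%, 9.46% and 8.06% of such probes did over all genes. Palb2, with undetected values at its RefSeq probes, is not among them. Probes of a gene share its arrays and can read different transcripts, so these shares describe the array and are not a test.

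**Figure D4:**
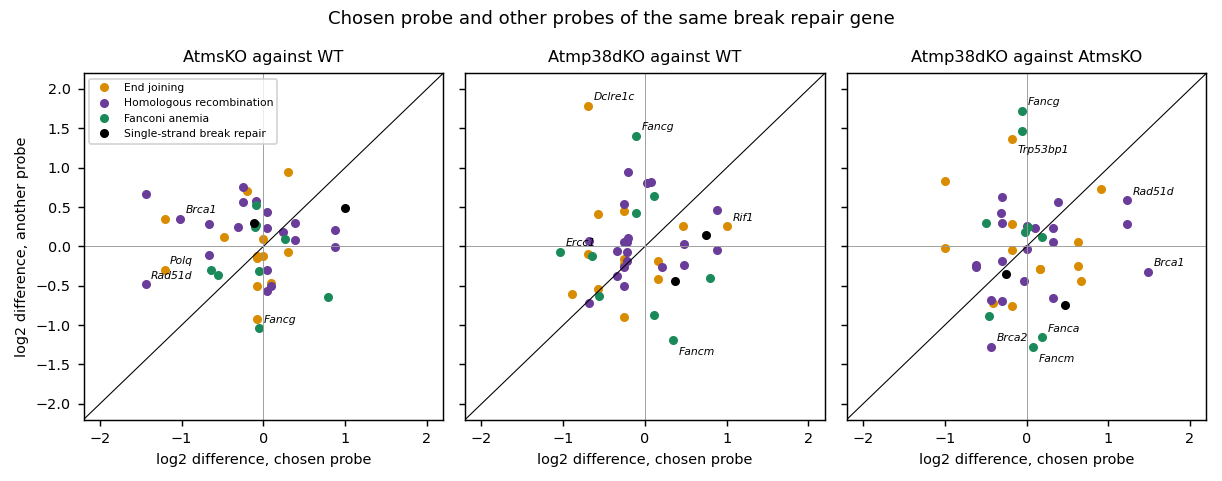
Log2 difference at another probe of a break repair gene (y axis) against that at its chosen probe (x axis) in the 3 comparisons, for probes well above background on both arrays, coloured by role. The line marks equal values; points fall on both sides of 0 on both axes, with 48.8%, 54.5% and 54.5% of them on the same side of 0 at both probes.

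A list of 74 further repair genes was described by the same measure, and 72 of them were on the array under the name searched. In AtmsKO against WT 7 were at least 2-fold higher, or 9.72%, against 3.94% of all genes considered, and 0 lower, against 4.09%, with a median of 0.08. In the array labelled Atmp38dKO against WT 5 were higher, or 6.94% against 4.02%, and 1 lower, or 1.39% against 4.49%, with a median of 0.12. Between both knockout arrays 2 were higher, or 2.78% against 3.75%, and 1 lower, or 1.39% against 3.72%, with a median of 0.02. Atr, the kinase that answers single-stranded DNA and stalled forks, read 38.1, 90.4 and 117 units, with log2 differences from WT of 1.32 and 1.40. Another Atr probe detected on every array read 63.4, 64.4 and 77.4, with 0.10 and 0.07, and a further one 27.9, 15.2 and 38.4, with -0.80 and 0.25. The probes detected on every array thus did not share the difference. Dim probes detected on both knockout arrays but not on WT read 2.64, 26.1 and 18.1, with bounds of 2.37 and 1.55. Another such probe read 1.37, 10.2 and 15.4, with 1.02 and 1.32. A dim probe undetected on AtmsKO alone gave -0.36 and 0.25.

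Slx4, the scaffold of crosslink-cutting nucleases, read 48.0, 98.3 and 111 units at its only probe, with log2 differences of 1.11 and 1.00. Fam175a, or Abraxas, a partner of Brca1 at ubiquitin-marked breaks, read 33.6, 73.5 and 83.4 with 1.21 and 1.096, and Helq, a helicase, read 11.7, 24.8 and 43.3 with 1.16 and 1.67. At the chosen probes Atr and these 3 genes were lowest on the WT array. The other Fam175a probe gave -0.70 in AtmsKO against WT, while the other Helq probe was higher on both knockout arrays, by 0.31 and 1.43.

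Poln, a DNA polymerase, read 2.39 units on WT, where it was not well above background, 150.4 on AtmsKO and 11.8 on the third array, so that it was at least 29.8-fold higher on AtmsKO than on WT. The other Poln probe that was detected on WT and AtmsKO read 7.50 and 9.73 units there. Apitd1, which binds Fancm, and Zswim7, which takes part in recombination, passed 2-fold in AtmsKO against WT alone, with log2 differences of 1.01 and 1.32. Tdp1, which frees DNA ends from trapped topoisomerase, had a log2 difference of 1.03 and the helicase Brip1 of -1.47 in the array labelled Atmp38dKO against WT. Between both knockout arrays Wdr48, the cofactor of the enzyme that removes ubiquitin from Fancd2, and Ints3, a subunit of a complex on single-stranded DNA, were higher by 1.23 and 1.13. In the same comparisons other detected probes gave 0.07 and 0.67 for Apitd1 and 0.14 and 0.71 for Tdp1. The other probes of Brip1, Ints3 and Wdr48 gave -0.52, 0.40 and 0.24, that of Wdr48 not well above background on AtmsKO. Each went the same way as the chosen probe and stayed under 2-fold.

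Many repair genes follow the cell cycle, so 45 proliferation genes were read beside them. All were well above background on all 3 arrays, and their median log2 differences were 0.13, 0.06 and -0.10 in AtmsKO against WT, Atmp38dKO against WT and Atmp38dKO against AtmsKO. A single one was at least 2-fold higher in each comparison, or 2.22%, against 3.94%, 4.02% and 3.75% of all genes considered. None was lower, against 4.09%, 4.49% and 3.72%. Their summed scaled signal was 1.12 and 1.05 times that of WT. LT-HSC markers were lower on the array labelled Atmp38dKO. There 10 of the 12 markers were below WT, with a median of -0.37, and the log2 differences of Fgd5 and Hoxb5 were -1.72 and -1.64, whereas in AtmsKO against WT the median was 0.10. The summed scaled signal of the 12 was 0.98 and 0.871 times that of WT, and that of the 4 megakaryocyte markers was 2.27 and 1.30 times, with Pf4 at 1020, 2366 and 1536 units. The T cell marker Cd3g read 4.28, 1.74 and 6.01 units and was detected on the array labelled Atmp38dKO alone. That value lay near the detection floor, with a log2 difference from WT of -0.04. Cd8a, another T cell marker, went the other way with 7.57, 7.96 and 4.77 units and was undetected on the array labelled Atmp38dKO alone. The part of these markers in the values of the repair genes was not tested.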

How the data were processed

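The deposited scanner files hold, per spot, processed intensity, raw mean and local background intensity, and flags. The authors' contractor made them with Agilent Feature Extraction 11.5.1.1, which subtracted background and removed spatial trends within an array and did not normalize between arrays. Per the file headers, probe positions refer to mm9. The deposited table of log2 values had column medians of -2.18, -2.21 and -2.16 and equaled log2 of the processed intensity less the 75th percentile, within 0.02 after a constant shift, for at least 99.8% of probes.

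Control and outlier spots (57, 75 and 83) were left out and spots of a probe averaged. Where a value was below that flag, the lowest detected signal of the array took its place unless the value itself was higher. Python 3.11.15, pandas 2.3.3 and, for normexp, limma 3.58.1 were used, and the functions were tested on simulated data. All 85 RefSeq accessions among the members' probes matched the member's symbol in a RefSeq table. Members, lists and rules were chosen with earlier results of these data known.

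Text names Atm, Mapk14, members past 2-fold or undetected on an array, the 3 brightest of each group, the 3 with the smallest range, members with a probe moving at least 1.5-fold the opposite way, and further repair genes past 2-fold. Alternatives covered scaling, background, detection, probe choice and thresholds of 1.5-fold and 4-fold. Exon and UTR positions of probes were not analysed here, and probes in the text are shown whole where they span a junction. Of p53 target and lineage lists, results stand in the closing section. One item of the lists is not reported here.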

Additional observations from a re-analysis of the deposited data

How the results depend on the processing

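The main limit is 1 array per group: leaving out a replicate is not possible, and no paired analysis was possible because the groups share no replicate numbers beyond 1. Under normexp with an offset of 50, which draws dim probes together, the count of members at least 2-fold higher or lower was 0 in every comparison. With every probe of a gene pooled by its median, the members lower were 1 in AtmsKO against WT and 2 in Atmp38dKO against WT, those higher in the latter 1, and the median in AtmsKO against WT was 0.0476. Brca1 then turned from lower to 0.0578 in AtmsKO against WT and from higher to -0.2908 in Atmp38dKO against AtmsKO. Both are the values of a dim probe that read 6.2, 1.34 and 6.13 units and was not well above background on AtmsKO. There the detection floor took its place, so they are differences from that floor. The further Brca1 probe detected on all 3 arrays gave 0.35 and -0.32. With detection on each of the 3 arrays required, the members higher were 1 in AtmsKO against WT and 1 in Atmp38dKO against WT, and those lower in Atmp38dKO against AtmsKO 1. Scaling by the median of detected probes, or quantile normalization, left 1 member higher in Atmp38dKO against WT. At 1.5-fold 8 were higher and 9 lower in AtmsKO against WT, 5 and 10 in Atmp38dKO against WT, and 7 and 5 in Atmp38dKO against AtmsKO. At 4-fold these were 0 and 1, 0 and 0, and 0 and 1. No share of all genes is given for the 1.5-fold, 4-fold and pooled counts. They show only how the member counts move with the setting.

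Of the 17 differences of at least 2-fold, 17 kept their size and direction with the deposited log2 values, 17 without filter and floor, 16 under each other scaling and 9 with all probes pooled. Reading Rad51c and Wrn at their next probes, an alternative chosen after seeing the data, moved no count of members by over 1.5 times. No scaling moved the median of all genes by over 0.1 on the log2 scale.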

Other observations

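Genes that p53 activates after DNA damage were read as well, since Atm acts on p53. Of 30 such genes all were on the array. Cdkn1a, the cell cycle inhibitor p21, read 213, 94.7 and 135 units on the WT, AtmsKO and Atmp38dKO arrays, with log2 differences from WT of -1.10 and -0.88. Tigar, a regulator of glycolysis, read 22.8, 6.20 and 9.09, with -1.80 and -1.54, and Zmat3, an RNA-binding protein, went the other way with 11.9, 23.0 and 52.2, or 1.02 and 1.91. WT was thus the highest array for Cdkn1a and Tigar and the lowest for Zmat3. Btg2 read 288, 266 and 148, and Mdm2, the ligase that degrades p53, 474, 402 and 380 with differences of -0.16 and -0.54. In all 1 gene was at least 2-fold higher and 2 were lower in AtmsKO against WT, or 3.33% and 6.67%, against 3.94% and 4.09% of all genes considered. In Atmp38dKO against WT 1 was higher and 3 were lower, against 4.02% and 4.49% of all genes, and between both knockout arrays 0 and 1, or 3.45% lower against 3.72%, with medians of -0.05, -0.06 and 0.06.

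Of the lineage lists, the summed scaled signal of the AtmsKO array and of the array labelled Atmp38dKO was 1.03 and 1.18 times that of WT for 5 T cell genes, 0.923 and 0.949 times for 5 B cell genes, 1.17 and 1.18 times for 6 erythroid genes, and 1.01 and 1.09 times for the 4 surface markers that the sort selected against. For 7 granulocyte genes it was 1.04 and 0.905 times, a sum led by Itgam at 33134, 32383 and 33895 units. By gene, 5 and 6 of the 7 were above WT, with medians of 0.18 and 0.17, and Elane was highest at 0.95 and 0.93. For 4 mast cell genes the sum was 0.934 and 0.246 times that of WT. There Mcpt1, with a single probe, read 75.9, 70.6 and 2.19 units, not well above background on the third array, while Fcer1a read 5.09, 4.49 and 10.1 units, and was well above background on the third array alone.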
